A study of Mus musculus with 18 samples.

Results

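The genes described here encode the subunits of the mitochondrial respiratory chain and ATP synthase that are carried by nuclear chromosomes. They were chosen by symbol: names starting Ndufa, Ndufb, Ndufc, Ndufs or Ndufv (complex I, with the Ndufaf assembly factors left out), Sdha to Sdhd (complex II), names starting Uqcr (complex III), Cox4 to Cox8 (complex IV) and Atp5 (complex V, the ATP synthase). No expression value entered the choice. Of the 14068 genes listed in at least 1 of the deposited tables for choroid, retina and brain, 83 met it: 38 of complex I, 4 of complex II, 8 of complex III, 16 of complex IV and 17 of complex V. For choroid 82 of them were listed among 11718 genes, for retina 78 among 12369 and for brain 82 among 12919. The genes listed for every tissue numbered 10505 and held 77 of the 83. A gene was listed only where every library of at least 1 fraction reached 50 reads. A member could thus be listed through the fraction where it was high. The 6 members not listed everywhere were Cox4i2 (not in choroid), Cox8b (not in retina or brain), and Cox6a2, Cox6b2, Cox7a1 and Ndufa4l2 (not in retina). These 6 are tissue-restricted isoforms, named here after their values were seen. Of the 13 subunits encoded by the mitochondrial genome, 0 were listed in any table, so that side of the chain was not analysed here.

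Complexes I to IV pass electrons from NADH and succinate to oxygen, and complexes I, III and IV pump protons across the inner mitochondrial membrane. Complex V uses the proton gradient to make ATP. Several complex IV subunits exist as a widely expressed form and a form restricted to muscle, lung or testis, coded by separate genes. Endothelial cells are known for drawing much of their ATP from glycolysis, whereas photoreceptors and neurons are among the heaviest users of oxidative phosphorylation. A few members carry a name that does not match their place: Ndufa4 and Ndufa4l2 belong to complex IV, Ndufab1 is the mitochondrial acyl carrier protein as well as a complex I subunit, Cox7a2l is a factor of supercomplex assembly, Atp5s is related to coupling factor B, and Atp5sl takes part in complex I assembly. Counts by complex below follow the symbols.

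All libraries came from Tie2-cre+; NuTRAP+ mice and carry the label WT in the deposited counts. In these animals the Tie2 promoter drives Cre recombinase, and Cre turns on a ribosomal protein tagged with GFP. Pulling down the tag (TRAP, translating ribosome affinity purification) recovers RNA bound to the ribosomes of cells with a history of Cre. The Tie2 promoter is also active in the blood lineage, so tagged cells are not endothelial cells alone. RNA was sequenced before the pull-down (input) and after it (positive fraction). Each of choroid, retina and brain had 3 inputs and 3 positive fractions, with the replicate numbers 421, 953 and 960, which gave 18 libraries in 6 groups. A retina or choroid sample pooled the 2 eyes, the choroid samples were scraped together with retinal pigment epithelium (RPE), and a brain sample was 0.5 of a brain. The series describes the replicates as biological and gives neither sex nor age in the labels used here. No library without Cre was analysed, so background carried through the pull-down was not measured. In whole tissue and in pulled-down RNA alike, fewer cells of a type and less RNA per cell cannot be told apart.

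The promoters of 5 members are shown because these members carry the main differences below: Uqcr11, Atp5k and Cox6a1 were much lower in retina than in another tissue, Atp5sl went the other way, and Cox5a had the largest choroid enrichment among the members. Sequences come from RefSeq's table on GRCm38.p6 and run from 200 bases before the annotated start through the first 10 bases from the start on. They read 5′ to 3′ on the gene's strand, and capitals mark matches to the motifs named below. The windows are chr10:80406812-80407021 (minus strand) for Uqcr11, chr5:108434390-108434599 (minus) for Atp5k, chr5:115348949-115349158 (minus) for Cox6a1, chr7:25619293-25619502 (plus) for Atp5sl and chr9:57521032-57521241 (plus) for Cox5a.
Uqcr11: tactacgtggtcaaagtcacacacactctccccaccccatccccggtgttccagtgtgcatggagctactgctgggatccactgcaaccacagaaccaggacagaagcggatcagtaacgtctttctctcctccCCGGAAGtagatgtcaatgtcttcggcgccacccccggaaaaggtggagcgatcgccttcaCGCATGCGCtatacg
Atp5k: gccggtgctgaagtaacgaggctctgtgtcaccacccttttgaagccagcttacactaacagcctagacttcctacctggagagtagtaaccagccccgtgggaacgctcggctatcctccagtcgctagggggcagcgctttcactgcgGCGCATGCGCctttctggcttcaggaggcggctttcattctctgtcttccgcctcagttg
Cox6a1: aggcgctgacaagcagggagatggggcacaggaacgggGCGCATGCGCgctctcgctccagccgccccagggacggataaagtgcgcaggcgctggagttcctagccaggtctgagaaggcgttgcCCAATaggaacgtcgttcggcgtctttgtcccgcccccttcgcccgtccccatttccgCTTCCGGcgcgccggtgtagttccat
Atp5sl: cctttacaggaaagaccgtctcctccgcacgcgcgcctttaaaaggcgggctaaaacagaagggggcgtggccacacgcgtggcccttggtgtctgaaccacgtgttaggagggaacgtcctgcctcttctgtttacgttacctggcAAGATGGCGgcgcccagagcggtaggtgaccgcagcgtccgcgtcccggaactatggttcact
Cox5a: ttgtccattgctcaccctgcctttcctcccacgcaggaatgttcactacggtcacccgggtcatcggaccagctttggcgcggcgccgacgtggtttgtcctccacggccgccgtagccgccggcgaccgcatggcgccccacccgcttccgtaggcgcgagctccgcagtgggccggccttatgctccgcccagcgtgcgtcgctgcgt
Of the 83 members 69 had a promoter in the table and 14 had no entry. Each promoter was searched over 300 bases, 250 before the start and 50 after it, on both strands, for exact letters. The core of the NRF1 motif (nuclear respiratory factor 1, GCGCATGCG) was found for 8 of 69 members (11.6%), against 1.95% of 27025 genes and 1.75% of all 32851 promoters. It lies in the windows of Uqcr11, Atp5k and Cox6a1. In Atp5k and Cox6a1 the forward and reverse matches overlap by all but 1 base, since the motif is nearly a palindrome. A motif of the ETS family (CCGGAAG), to which GABPA belongs, was found for 16 members (23.2%), against 9.93% of genes and 8.86% of promoters, and appears in Uqcr11 and, on the reverse strand, in Cox6a1. The YY1 letters AAGATGGCG were found for 8 members (11.6%), against 1.64% of genes and 1.4% of promoters, and appear in Atp5sl. The ESRRA letters TGACCTTG were found for 4 (5.8%), against 1.76 and 1.56%, and the NFY letters CCAAT for 30 (43.5%), against 41.1 and 37.4%. The CCAAT match shown is in Cox6a1. Of the 69 members, 23 held none of the 5 motifs, 29 held 1, 15 held 2, 1 held 3 and 1 held 4. The Cox5a window has no capitals, which says only that these letters do not occur in it.

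One library stood apart in short transcripts, and with them in most of the members. Levels are given in CPM, a gene's reads set against the scaled total of its library over the listed genes, with the scaling done within each tissue. The summed level of the members was 11860 and 12049 CPM in brain inputs 421 and 953 and 26817 CPM in brain input 960. In that library 79 of 82 members were above the mean of the other brain inputs, by a median of 2.53 times, from 0.844 times for Uqcrc2 to 6.05 times for Ndufa2. Over all genes the median ratio was 0.941. The ratio went with transcript length: it was 2.9 over all 218 genes with a transcript under 700 bases and 0.855 over the 10612 genes with 1500 bases or more. Among the members it was 3.16 for the 34 short ones and 1.78 for the 17 long ones. Brain input 960 was also the shallowest brain library, at 9596740 reads over the listed genes. The brain comparisons of the members are therefore given with and without it.

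In the other libraries the members summed to 10388, 12531 and 14937 CPM in choroid inputs 421, 953 and 960 and to 10290, 15717 and 15559 CPM in the choroid positive fractions. Retina was lower, at 8380, 8461 and 7825 CPM in the inputs and 5949, 7111 and 8886 CPM in the positive fractions. The brain positive fractions lay close together at 13344, 13082 and 13446 CPM. Choroid positive 421 was thus the low one of its group and retina positive 960 the high one of its group. In choroid the remaining genes with transcripts under 700 bases summed to 19403, 18936 and 27978 CPM in the inputs and 20116, 30486 and 34711 CPM in the positive fractions, so that input 960 was the high input and positive 421 the low positive fraction in both sums.

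**Figure D1:**
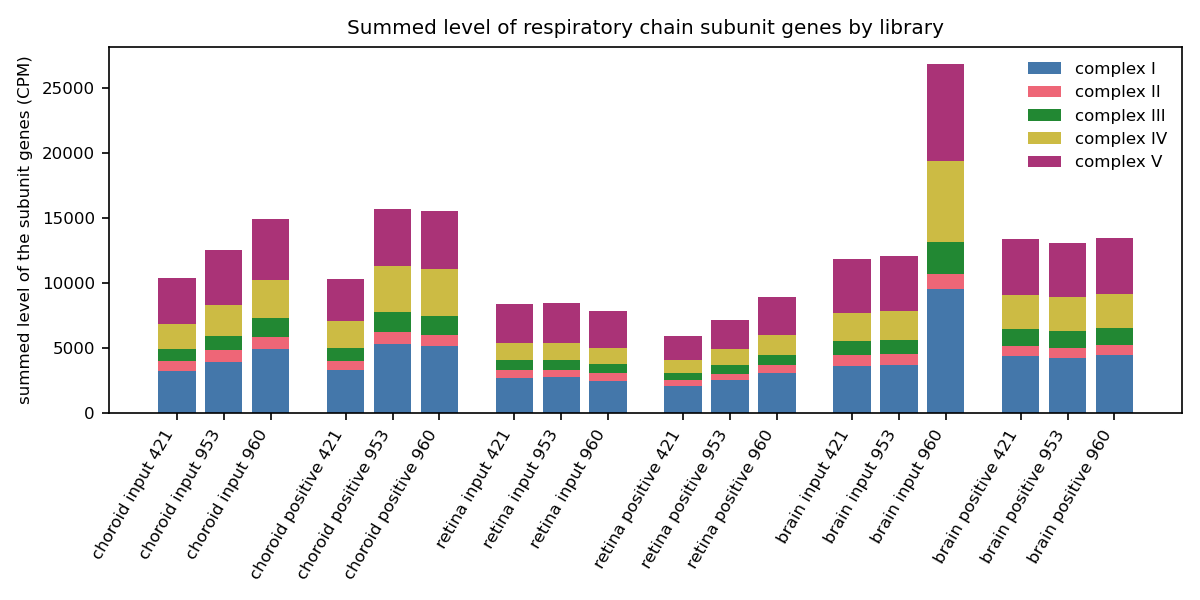
Summed level of the members in each of the 18 libraries, in CPM scaled within each tissue, stacked by complex. Brain input 960 reaches 26817 CPM against 11860 and 12049 CPM in the other brain inputs, and the retina positive fractions are the lowest group at 5949 to 8886 CPM.

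Reads per library, summed over the genes listed for its tissue, ran from 2649095 to 14484068 for choroid and from 6260958 to 21521130 for retina. For brain they ran from 9596740 to 32064355. The members took 0.6 to 2.58% of these sums, which leave out genes not listed. The pull-down raised 10 of 10 endothelial markers in each tissue (median log2 differences of 3.60, 6.52 and 5.26 for choroid, retina and brain). It also raised 9 of 10, 7 of 7 and 10 of 10 leukocyte markers. Among the choroid libraries 7 of 7 RPE markers fell and 0 of 10 mural cell markers rose. Other cell types varied between libraries: the summed rod photoreceptor markers were 353, 2020 and 4700 CPM in the choroid inputs and 129, 628 and 2010 CPM in the choroid positive fractions, and muscle markers were 2160 CPM in choroid positive 953 against 410 and 546 CPM in the other choroid positive fractions.

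Respiratory chain subunits were among the well expressed genes of every group. Levels between genes were compared per kilobase of transcript. The members' median was 157 CPM per kilobase in choroid inputs, where it was 11.9 over all genes, and 186 in choroid positive fractions, where all genes had 12.5. In retina it was 95.4 and 93.3 CPM per kilobase in inputs and positive fractions (all genes 12.4 and 13.5), and in brain 196 and 162 (all genes 11 and 12.1). Without brain input 960 the brain input median was 125 (all genes 10.9). Of the members, 79 of 82 in choroid positive fractions, 76 of 78 in retina and 76 of 82 in brain lay above the median of all genes. In the positive fractions the complexes came in the same order in each tissue. The medians in choroid were 156 for complex I, 114 for complex II, 213 for complex III, 270 for complex IV and 249 CPM per kilobase for complex V. In brain they were 140, 97.4, 188, 258 and 239, and in retina 76.7, 41.7, 99.5, 137 and 115. Cox4i1, the largest nuclear-encoded subunit of complex IV, had the highest level per kilobase in choroid (745 in inputs, 955 in positive fractions) and in the brain positive fractions (738). In brain inputs it had 1210 over all 3 libraries, but over inputs 421 and 953 alone Atp5b stood first at 677 and Cox4i1 next at 657. In retina Atp5b, the catalytic beta subunit of ATP synthase, was highest (569 in inputs, 357 in positive fractions), and Cox4i1 followed at 348 in the positive fractions. The lowest were Ndufa4l2 in the positive fractions of choroid (2.02) and brain (2.78) and Atp5s in those of retina (7.54).

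In choroid the number of subunits called after pull-down depended on whether the libraries were paired by their replicate number. Without pairing, of 82 members 3 were higher in positive fractions and 6 lower (edgeR quasi-likelihood test, adjusted p under 0.05), while 42% of all genes were called in either direction. The members' median log2 difference was 0.13, against -0.03 over all genes. By complex, 1 rose and 2 fell of 38 in complex I, 0 changed of 4 in complex II and of 8 in complex III, 2 rose and 2 fell of 15 in complex IV, and 2 fell of 17 in complex V. The medians were 0.12, -0.02, 0.23, 0.35 and 0.06. The labels do not say what the numbers are. They were taken to pair the choroid libraries, since same-numbered ones deviated together (r = 0.63, 0.23 and 0.49 for 421, 953 and 960). With the number as a block, 20 members were higher and 8 lower, while 56.6% of all genes were called. Higher and lower were then 9 and 3 in complex I, 1 and 0 in complex II, 2 and 0 in complex III, 5 and 2 in complex IV and 3 and 3 in complex V. The choroid values of single genes below come from the fit without pairing, except where the block is named.

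Cox5a, a widely expressed complex IV subunit on chromosome 9 (57521232 to 57532426, plus strand, mm10), had 62.9, 77.7 and 105 CPM in choroid inputs 421, 953 and 960 and 131, 243 and 224 CPM in the positive fractions. The groups did not overlap, and the log2 difference was 1.28 ± 0.28 (SE, n = 3 against 3, edgeR adjusted p = 0.00678). A predicted gene on the other strand, Gm26631, covers more than 10% of its exon bases, and whether the counting used strand is not given in the sources used here. Cox6b1, the widely expressed partner of Cox6b2, had 136, 176 and 220 CPM in inputs and 211, 399 and 403 CPM in positive fractions, with 1 positive library inside the input range but each above the input of its number (log2 difference 0.93 ± 0.29, edgeR adjusted p = 0.0302). Ndufa8, an accessory complex I subunit of the intermembrane space side, rose from 79.4, 91 and 122 CPM to 114, 189 and 221 CPM, again with overlap but a rise in each pair (0.84 ± 0.27, edgeR adjusted p = 0.0358).

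Of the 5 isoforms with restricted expression listed for choroid, Cox8b, Cox6b2 and Ndufa4l2 fell and Cox7a1 and Cox6a2 did not pass. Cox8b, the form of Cox8 found in muscle and brown fat (chromosome 7, 140898942 to 140900446), had 69.4, 90.5 and 138 CPM in choroid inputs and 19.3, 49.4 and 45.8 CPM in positive fractions (log2 difference -1.39 ± 0.38, edgeR adjusted p = 0.0181). Cox6b2, known as the testis form (chromosome 7, 4751794 to 4753094), had 32.3, 37.3 and 47 CPM against 10.7, 17.9 and 19.1 CPM (-1.31 ± 0.28, edgeR adjusted p = 0.00614). Every positive library was below every input for both genes. Ndufa4l2, an isoform of Ndufa4 known as a hypoxia target and a pericyte transcript (chromosome 10, 127514939 to 127517156), had 10.4, 5.43 and 9.73 CPM in inputs and 2.27, 0 and 3.39 CPM in positive fractions. Its fitted log2 difference was -2.23 ± 0.69 (edgeR adjusted p = 0.0315), a value that depends on the treatment of the library at 0. The mural cell markers summed to 672, 467 and 497 CPM in choroid inputs and 230, 255 and 234 CPM in positive fractions, and 6 of 10 were lower; their part in the Ndufa4l2 result was not tested. Cox7a1, the heart and muscle form of Cox7a, had 8.1, 11 and 13 CPM against 1.36, 7.1 and 9.75 CPM (-0.89, edgeR adjusted p = 0.23). Cox6a2, the other muscle form, had 6.07, 11.7 and 8.29 CPM against 4.99, 26.2 and 6.78 CPM (0.55, edgeR adjusted p = 0.477). For Cox6a2 the high library, positive 953, was also the one with 2160 CPM of muscle markers. Among the positive fractions Cox7a1 was highest in 960, where the muscle markers summed to 546 CPM. The part of muscle cells in these values was not tested.

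Shares within isoform pairs do not depend on library scaling. Cox6b2 made up 21, 19.2 and 19.3% of the Cox6b1 and Cox6b2 pair, per kilobase, in choroid inputs and 5.34, 4.78 and 5.03% in positive fractions, which is 19.8% ± 1.05 and 5.05% ± 0.278 (SD, n = 3 each). The groups were far apart. Cox8b made up 31.5% ± 1.68 of its pair with Cox8a in inputs and 17.1% ± 4.18 in positive fractions (SD, n = 3 each), again with no overlap (29.8 to 33.1% and 13.1 to 21.5%). Cox7a1 was 14% ± 0.976 and 6.33% ± 3.56 of its pair with Cox7a2 (SD, n = 3 each). Cox6a2 was 3.85% ± 1.39 and 3.27% ± 2.31 of its pair with Cox6a1 (SD, n = 3 each), and these overlapped, with the highest share, 5.94%, in positive 953. In brain the shares were small: Cox7a1 was 4.66% in inputs (3.67% without input 960) and 3.88% in positive fractions, Cox6b2 1.72% (2.02%) and 1.2%, Cox6a2 1.18% (1.41%) and 1.68%, Cox4i2 0.388% (0.402%) and 0.59%, and Ndufa4l2 0.72% (0.633%) and 0.714%. In brain Cox4i2, Cox6a2, Cox6b2, Cox7a1 and Ndufa4l2 had 1.56 to 10.4 CPM in single libraries. Cox4i2, the hypoxia-linked lung form of Cox4, was 8.54% ± 0.473 of its pair in retina inputs and 5.93% ± 0.854 in retina positive fractions (SD, n = 3 each).

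The other choroid members that fell were Atp5s, Ndufv3 and Atp5b. Atp5s (chromosome 12, 69724962 to 69744658) had 12.1, 16.4 and 15.1 CPM in inputs and 7.94, 5.25 and 4.24 CPM in positive fractions (log2 difference -1.29 ± 0.32, edgeR adjusted p = 0.012). Ndufv3, an accessory subunit of the complex I flavoprotein module, had 91.2, 129 and 159 CPM against 51.3, 80 and 86.5 CPM (-0.80 ± 0.26, edgeR adjusted p = 0.0378). Atp5b had 987, 1030 and 1020 CPM against 686, 618 and 731 CPM (-0.57 ± 0.17, edgeR adjusted p = 0.0274). In all of these the groups did not overlap. Its partner in the catalytic head, Atp5a1, had 713, 792 and 748 CPM against 574, 655 and 614 CPM, also without overlap, but did not pass (-0.29 ± 0.17, edgeR adjusted p = 0.194). Complex II stood at -0.10 (Sdha), 0.34 (Sdhb), 0.05 (Sdhc) and -0.13 (Sdhd), with edgeR adjusted p from 0.15 to 0.865. The genes for the proton-carrying c subunit of ATP synthase, which encode the same mature protein, gave -0.56 (Atp5g1), 0.46 (Atp5g2) and 0.04 (Atp5g3), and none of these passed.

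Among the named members, Atp5g1 (-0.56, adjusted p = 0.00382), Atp5g2 (0.42, 0.0264), Cox6a1 (0.60, 0.00755), Ndufs1 (-0.40, 0.0208) and Sdhb (0.33, 0.0489) were called in edgeR with the replicate block and not without it. Without the libraries numbered 953 the Cox5a call was lost (edgeR adjusted p = 0.101). The calls of Cox6b1 and Atp5b were lost in 8 alternatives each, of Ndufv3 in 6 and of Ndufa4l2 in 5. Those of Cox8b and Atp5s were lost in 3 each and that of Cox6b2 in 1. Single libraries moved the counts: 18 members were higher and 3 lower without positive 421, and 7 and 2 without input 960. Of all genes 43.3 and 36.3% were called in those fits. Without any 1 of input 421, input 953, positive 953 or positive 960 only 1 was higher, and the lower count was 3 without input 953. There the shares of all genes called were 34.3, 27.8, 32.8 and 34.4%. With library-size scaling alone 1 was higher and 10 lower, while 43.5% of all genes were called. The all-gene median was then -0.26 in place of -0.03.

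**Figure D2:**
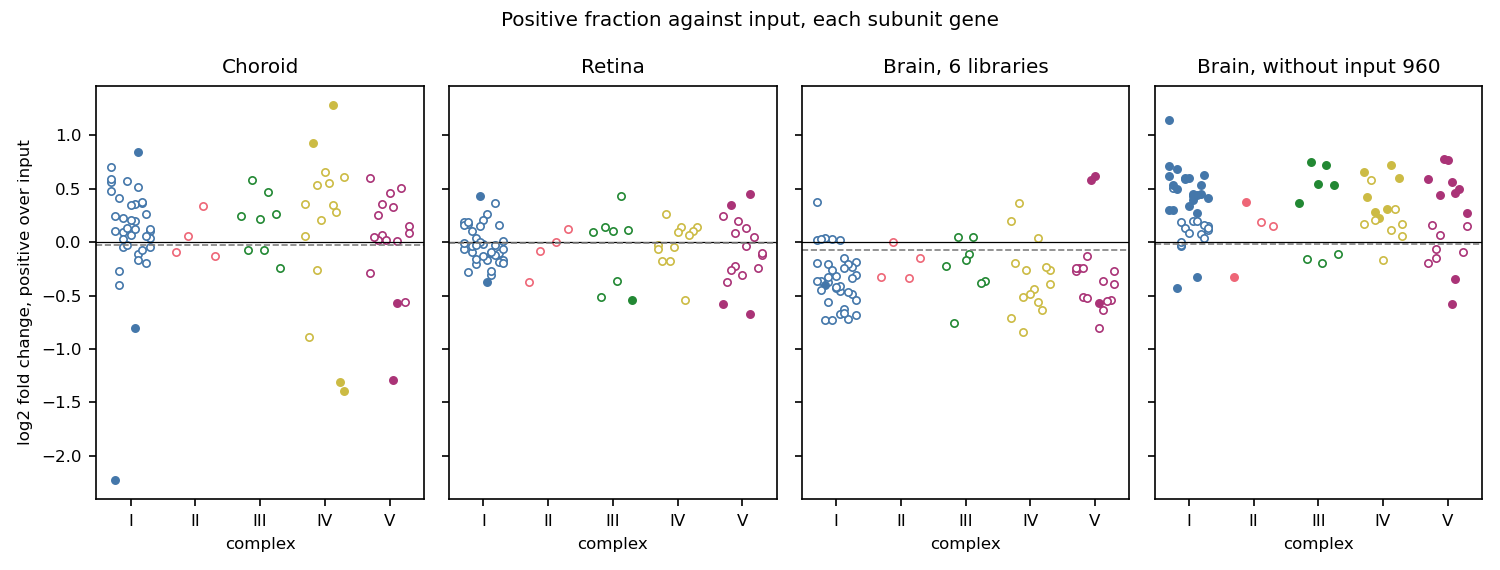
Log2 difference between positive fraction and input for each member by complex, in choroid, retina, brain and brain without input 960. Filled points passed adjusted p under 0.05 and the dashed line is the median of all genes; the brain panel holds 2 higher and 2 lower members and the panel without input 960 holds 42 and 5.

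In retina the alpha and beta subunits of ATP synthase and a core subunit each of complexes I and III were lower after pull-down, and 3 other members were higher. Of 78 members 3 rose and 4 fell (edgeR, adjusted p under 0.05), while 31.7% of all genes were called. The members' median was -0.03, against -0.01 over all genes. Atp5b had 1100, 1120 and 1040 CPM in inputs 421, 953 and 960 and 550, 606 and 897 CPM in positive fractions (log2 difference -0.67 ± 0.18, edgeR adjusted p = 0.0245). Atp5a1, the alpha subunit, had 595, 595 and 577 CPM against 343, 340 and 498 CPM (-0.58 ± 0.16, edgeR adjusted p = 0.0251). Positive 960 was nearest to the inputs for both. Uqcrc1, a core subunit of complex III, had 207, 212 and 201 CPM against 132, 132 and 161 CPM (-0.54 ± 0.11, edgeR adjusted p = 0.00823). Ndufs1, the largest subunit of complex I, which carries iron-sulfur clusters, had 113, 113 and 110 CPM against 94.1, 71.7 and 93.2 CPM (-0.37 ± 0.12, edgeR adjusted p = 0.0489). No input library reached down to a positive one in these genes.

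The 3 that rose in retina changed by 0.35 to 0.45 on the log2 scale. Atp5k, the small e subunit of ATP synthase, had 34.6, 38.4 and 38.9 CPM in inputs and 44.3, 47.9 and 60.1 CPM in positive fractions (log2 difference 0.45 ± 0.14, edgeR adjusted p = 0.0385). Ndufa7, an accessory complex I subunit, had 50.5, 54.7 and 48.7 CPM against 62.9, 61.4 and 82.9 CPM (0.43 ± 0.14, edgeR adjusted p = 0.0429). Atp5sl had 41.5, 44.5 and 47.4 CPM against 54.3, 60.2 and 55.6 CPM (0.35 ± 0.11, edgeR adjusted p = 0.0396). The groups did not overlap in these. Sdha, the flavoprotein of complex II, had 419, 403 and 399 CPM against 317, 268 and 359 CPM and narrowly missed (-0.37 ± 0.13, edgeR adjusted p = 0.0539). Cox4i2 had 24.2, 24.2 and 23.8 CPM against 11.4, 14.4 and 23 CPM (-0.54 ± 0.23, edgeR adjusted p = 0.105), so that positive 960 sat just under the inputs and the others far below. Cox4i1 had 271, 278 and 244 CPM against 208, 251 and 318 CPM (-0.03, edgeR adjusted p = 0.9).

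The rod markers summed to 27800, 36800 and 45100 CPM in retina positives 421, 953 and 960 and to 48700, 48400 and 46400 CPM in the inputs, so that positive 960 was nearest to the inputs, as it was for Atp5b, Atp5a1 and Uqcrc1. Of the 10 rod markers 2 fell after pull-down, of 10 neuron markers 6 fell, and of 4 mural cell markers 2 rose and 0 fell. The part of these cell types in the retina results was not tested. The Ndufs1 call was lost in 12 of 16 alternatives, those of Atp5sl and Ndufa7 in 8, of Atp5k in 7, of Atp5b and Atp5a1 in 6 and of Uqcrc1 in 1. The counts moved with single libraries: without positive 421 13 members were higher, without positive 960 19 were lower, without any 1 of the inputs 0 were higher and 1 lower, and without positive 953 there was 1 each way. Of all genes 35.6% were called without positive 421, 46.5% without positive 960 and 19.1% without positive 953. Without 1 of the inputs the share was 15.4 to 16.7%.

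**Figure D3:**
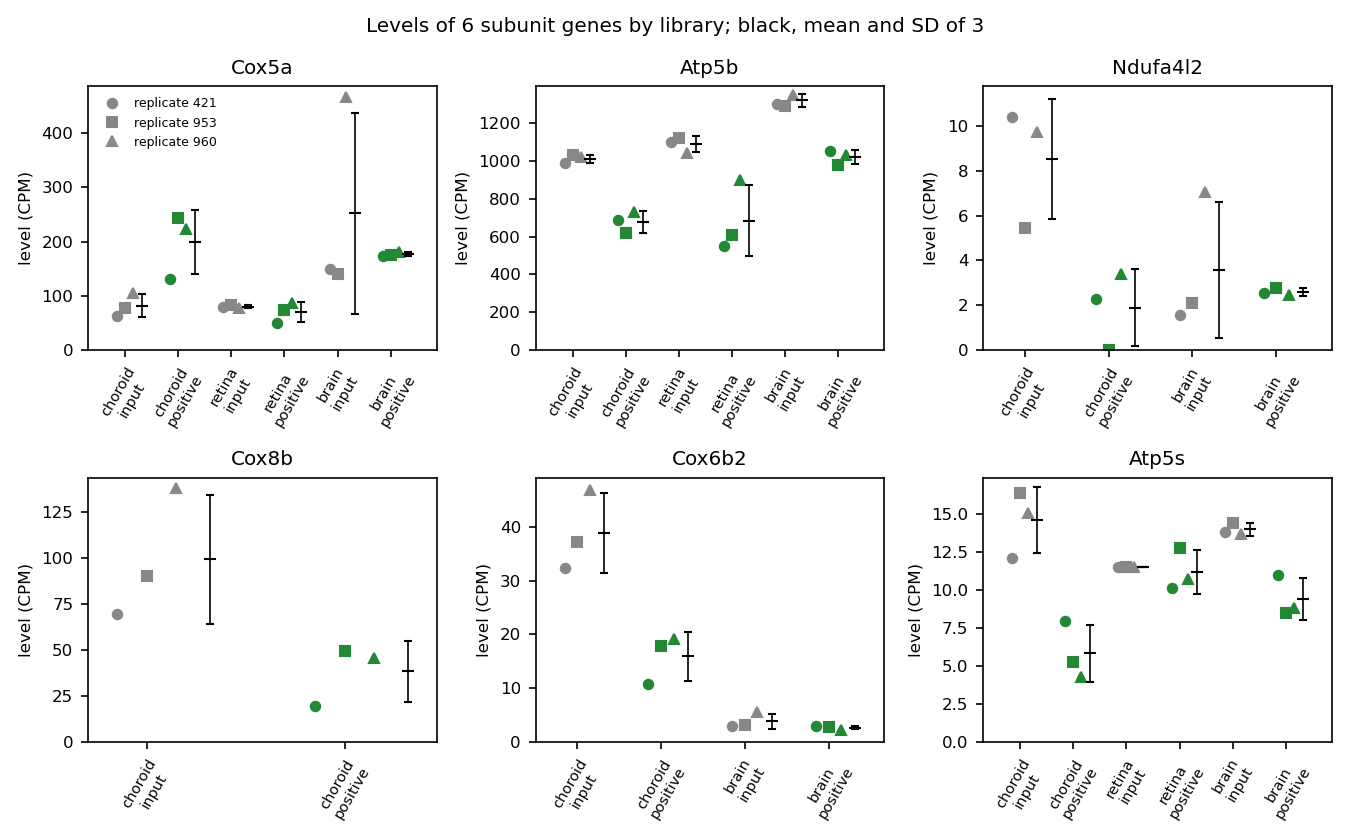
Level of Cox5a, Atp5b, Ndufa4l2, Cox8b, Cox6b2 and Atp5s in every library of the tables that list them, in CPM scaled within each tissue, from 0, with the mean and SD of each group in black. In choroid the Cox5a positive fractions (131 to 243 CPM) lie above the inputs (62.9 to 105 CPM), and those of Cox8b, Cox6b2 and Atp5s lie below.

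In brain the result depended on the library that stood apart. With all 6 libraries 2 of 82 members rose and 2 fell (edgeR, adjusted p under 0.05), while 39.5% of all genes were called, and the members' median was -0.33 against -0.07 over all genes. Without input 960, which leaves 2 inputs, 42 members rose and 5 fell while 72.1% of all genes were called, and the median was 0.29 against -0.02. Without it 21 of 38 complex I members rose and 2 fell, 1 of 4 rose and 1 fell in complex II, 5 of 8 rose in complex III, 7 of 15 in complex IV, and 8 of 17 rose and 2 fell in complex V. Leaving out any 1 of the other libraries left 0 members called either way. Of all genes 29.2% were called without input 421 and 29% without input 953.

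Atp5g2, a c subunit gene, and Atp5j, coupling factor 6, rose in both versions. Atp5g2 had 75.6, 82.9 and 105 CPM in brain inputs 421, 953 and 960 and 127, 149 and 130 CPM in positive fractions (log2 difference 0.62 ± 0.17, edgeR adjusted p = 0.0271, and 0.77 with adjusted p = 0.000406 without input 960). Atp5j had 144, 148 and 209 CPM against 250, 260 and 240 CPM (0.58 ± 0.19, edgeR adjusted p = 0.0447, and 0.78 with adjusted p = 0.000141). Both had every positive library above every input. Gabpa, which codes for the GABPA protein, overlaps more than 10% of the exon bases of Atp5j on the other strand. Atp5s fell from 13.8, 14.4 and 13.7 CPM to 11, 8.46 and 8.79 CPM (-0.57 ± 0.18, edgeR adjusted p = 0.0395, and -0.58 with adjusted p = 0.0111). Ndufs1 fell from 177, 173 and 166 CPM to 128, 125 and 136 CPM (-0.41 ± 0.13, edgeR adjusted p = 0.0433, and -0.43 with adjusted p = 0.00205). Input 960 did not stand out for these 2 genes. Among the alternatives the call of Atp5g2 was lost in 9, that of Atp5j in 10 and those of Atp5s and Ndufs1 in 8 each.

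The other 3 members lower without input 960 were Atp5b at -0.35 (edgeR adjusted p = 0.0103), Ndufa10 at -0.33 (0.00614) and Sdha at -0.32 (0.0101). With all libraries Atp5b had 1300, 1290 and 1350 CPM in inputs and 1050, 977 and 1030 CPM in positive fractions and did not pass (-0.37 ± 0.13, edgeR adjusted p = 0.0638), although the groups did not overlap. For most small subunits input 960 set the direction. Cox4i1 had 478, 500 and 1720 CPM in inputs and 544, 559 and 546 CPM in positive fractions, Cox5a 150, 141 and 466 CPM against 174, 175 and 180 CPM, and Atp5e, the epsilon subunit of ATP synthase, 75.1, 79.2 and 445 CPM against 108, 117 and 117 CPM. In each the positive fractions lay above inputs 421 and 953 and far below input 960. The largest rise without input 960 was that of Ndufa7, at 1.14 on the log2 scale (edgeR adjusted p = 4.32e-05), a gene picked after its value was seen.

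Whether enrichment itself differed between tissues was tested as a difference of differences over all 18 libraries and the 77 members in all 3 tables. Few members passed. Retina minus brain gave 0 higher and 0 lower (13.3% of all genes were called), and without brain input 960 0 higher and 3 lower (22.7%): Atp5g2 at -1.16 ± 0.32, Cox7a2l at -0.91 ± 0.24 and Uqcrc1 at -0.51 ± 0.16 (edgeR adjusted p = 0.0158, 0.0142 and 0.0329). Choroid minus brain gave 1 higher and 0 lower (24.6% of all genes), and without brain input 960 1 higher and 2 lower (28.3%), the lower ones being Ndufv3 at -1.26 ± 0.29 and Atp5j at -0.77 ± 0.24 (edgeR adjusted p = 0.00345 and 0.0249). Choroid minus retina gave 1 higher and 1 lower (28.8% of all genes), and without brain input 960 2 and 1 (39.1%). The median over members was 0.45 for retina minus brain (all genes 0.20) and -0.38 without brain input 960 (all genes -0.08), so its sign turned with that library.

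Cox5a was the member higher in choroid in both comparisons that include choroid. Its choroid enrichment exceeded that of brain by 1.96 ± 0.52 on the log2 scale (edgeR adjusted p = 0.0107), and by 0.98 ± 0.32 without brain input 960 (adjusted p = 0.0324). It exceeded that of retina by 1.49 ± 0.52 (edgeR adjusted p = 0.0401), and by 1.52 ± 0.31 without brain input 960 (adjusted p = 0.0013). These comparisons share the choroid libraries. In inputs Cox5a was lower in choroid than in brain (73.8, 90.4 and 122 against 176, 165 and 541 CPM, scaled over the inputs). Between the choroid and brain positive fractions it was not called (140, 256 and 238 against 175, 175 and 182 CPM, scaled over the positive fractions). The call against brain was lost in 2 of 27 alternatives, among them the one without choroid positive 953. The call against retina was kept in 13 of 27 alternatives, with adjusted p from 0.0013 to 0.316. Atp5s was lower in choroid than in retina by -1.21 ± 0.29 (edgeR adjusted p = 0.00567) and by -1.16 without brain input 960 (adjusted p = 0.00496), and was called in 25 of 27 alternatives. It was listed for choroid through its inputs, where it was high. The count of members with higher enrichment in choroid than in brain was 15 without brain input 421 and 12 without brain input 953, 2 versions in which input 960 is 1 of 2 inputs. Without choroid positive 421 that comparison had 2 higher and 1 lower. Choroid minus retina had 4 higher without retina positive 960, 2 without choroid input 960 or choroid positive 421, and 0 without any 1 of the other choroid and retina libraries or of brain positives 421 and 953. These counts with a library left out are given without the share of all genes called in the same fits.

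Comparing the positive fractions directly, retina stood below both other tissues across all 5 complexes. Levels here were scaled over the 9 positive fractions. The members summed to 10940, 16444 and 16461 CPM in choroid, 6264, 7583 and 9363 CPM in retina and 13385, 13065 and 13565 CPM in brain, so that every retina library was below every other. Scaled within each tissue, endothelial markers summed to 7850, 6780 and 6560 CPM in choroid positives and 3300, 2390 and 1860 CPM in retina. In brain positives they summed to 5230, 5910 and 4020 CPM. Rod markers summed to 129, 628 and 2010 CPM in choroid positives and 27800, 36800 and 45100 CPM in retina. The part of RNA from untagged cells in these contrasts was not tested. Between choroid and retina 65 of 77 members were higher in choroid and 2 lower (edgeR, adjusted p under 0.05), while 72% of all genes were called and 32.9% were higher. The members' median was 1.07, against -0.11 over all genes. Between retina and brain 1 was higher in retina and 67 lower, while 63% of all genes were called and 31% were lower, with a median of -0.83. Both comparisons use the same retina libraries. Between choroid and brain 7 were higher in choroid and 4 lower, while 46.8% of all genes were called, with a median of 0.20.

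**Figure D4:**
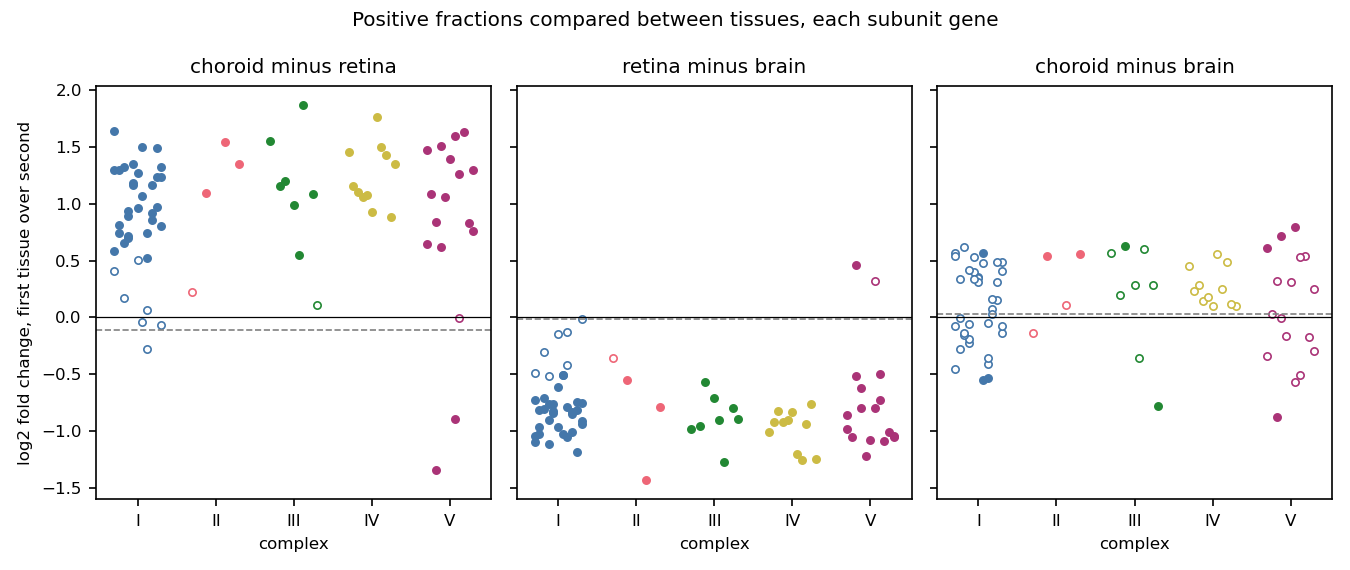
Log2 difference between the positive fractions of 2 tissues for each of the 77 members, by complex, with filled points for adjusted p under 0.05 and a dashed line for the median of all genes. Choroid minus retina has 65 members higher and 2 lower, retina minus brain 1 higher and 67 lower, and choroid minus brain 7 higher and 4 lower.

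In complex I, 30 of 37 members were higher in choroid than in retina and 30 of 37 lower in retina than in brain. Ndufa8 had 122, 199 and 235 CPM in choroid, 47.5, 59.3 and 70.9 CPM in retina and 123, 126 and 132 CPM in brain, a log2 difference of 1.64 ± 0.23 between choroid and retina (edgeR adjusted p = 3.55e-05) and -1.09 between retina and brain. Every retina library was below every library of the other tissues. A pair of core subunits that bind NADH or iron-sulfur clusters did not pass in choroid against retina: Ndufs1 was at -0.04 and Ndufv1 at 0.06 (edgeR adjusted p = 0.771). Ndufs1 had 94, 98.8 and 73.9 CPM in choroid, 99.3, 76.6 and 98.5 CPM in retina and 129, 125 and 138 CPM in brain, so that it was lower than brain in retina (-0.51, edgeR adjusted p = 0.0151) and in choroid (-0.55, 0.0157).

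Complex II split along its parts. Sdhb, the iron-sulfur subunit, had 121, 155 and 163 CPM in choroid, 47.1, 47.4 and 55.5 CPM in retina and 138, 132 and 137 CPM in brain. Its log2 differences were 1.54 ± 0.16 between choroid and retina (edgeR adjusted p = 2.57e-06) and -1.43 ± 0.16 between retina and brain (8.64e-06). Sdha, its flavoprotein partner in the same dimer, had 376, 427 and 362 CPM in choroid, 334, 286 and 379 CPM in retina and 438, 408 and 438 CPM in brain, with differences of 0.22 and -0.36 that did not pass (edgeR adjusted p = 0.246 and 0.0736). Retina reached into the choroid range for Sdha and nowhere near it for Sdhb. For the membrane anchors choroid was called higher than brain, a call each lost in 9 of 18 alternatives: Sdhc had 163, 255 and 238 CPM against 148, 152 and 148 CPM (0.54, edgeR adjusted p = 0.047), and Sdhd 103, 180 and 137 CPM against 99.1, 90.2 and 95.9 CPM (0.56, 0.0466). In retina they had 76.3, 104 and 126 CPM (Sdhc) and 41.1, 62.9 and 60.6 CPM (Sdhd).

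In complex III, 7 of 8 members were higher in choroid than in retina and 8 of 8 lower in retina than in brain. Uqcr11, a small accessory subunit, had 126, 236 and 255 CPM in choroid, 40.8, 57.8 and 69.5 CPM in retina and 131, 137 and 139 CPM in brain. Its difference between choroid and retina was 1.87 ± 0.26 (edgeR adjusted p = 3.05e-05) and between retina and brain -1.27 ± 0.25 (0.00081). Uqcrc1 behaved otherwise: it had 163, 155 and 169 CPM in choroid, 139, 141 and 170 CPM in retina and 276, 269 and 293 CPM in brain. It did not pass between choroid and retina (0.11, edgeR adjusted p = 0.518), and brain stood above retina (-0.89 ± 0.15, 0.000218) and choroid (-0.78 ± 0.15, 0.000906).

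In complex IV, 11 of 11 members were higher in choroid than in retina and 11 of 11 lower in retina than in brain. These 11 are the members in all 3 tables, which leaves out the restricted isoforms. Cox6b1 had 226, 420 and 428 CPM in choroid, 75.5, 111 and 129 CPM in retina and 230, 247 and 251 CPM in brain (choroid minus retina 1.76 ± 0.26, edgeR adjusted p = 4.71e-05). Cox4i1 had 527, 874 and 861 CPM, 219, 269 and 336 CPM and 546, 559 and 552 CPM in the same order (1.46 for choroid minus retina, -1.01 for retina minus brain). Cox5a had 140, 256 and 238 CPM, 53.5, 77.9 and 91.5 CPM and 175, 175 and 182 CPM, and Cox6a1 223, 367 and 312 CPM, 90.5, 112 and 151 CPM and 284, 276 and 280 CPM. For Cox5a and Cox6a1 retina was -1.25 below brain on the log2 scale (edgeR adjusted p = 0.00058 and 0.000341). Choroid positive 421 was the lowest choroid library in each of these 4 genes and lay below every brain library. Ndufa4, the complex IV member named after complex I, did not pass between choroid and retina (0.51, edgeR adjusted p = 0.0872).

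In complex V, 14 of 17 members were higher in choroid than in retina and 15 of 17 lower in retina than in brain. Atp5h, subunit d of the peripheral stalk, had 258, 456 and 415 CPM in choroid, 87.1, 127 and 150 CPM in retina and 246, 255 and 274 CPM in brain (choroid minus retina 1.63 ± 0.24, edgeR adjusted p = 5.27e-05). Atp5e had 123, 216 and 260 CPM, 55.4, 63.4 and 78.3 CPM and 109, 117 and 118 CPM, and was higher in choroid than in brain (0.80 ± 0.24, edgeR adjusted p = 0.0142). Atp5b had 733, 650 and 778 CPM in choroid, 580, 647 and 947 CPM in retina and 1050, 977 and 1040 CPM in brain. It gave -0.01 between choroid and retina (edgeR adjusted p = 0.97), with retina positive 960 above all choroid libraries, and -0.50 between retina and brain (0.0499), a call lost in 11 of 18 alternatives. Atp5a1, which forms the catalytic head together with Atp5b, had 612, 690 and 653 CPM, 362, 363 and 527 CPM and 851, 795 and 824 CPM, and retina was below choroid (choroid minus retina 0.64 ± 0.19, edgeR adjusted p = 0.00804) and below brain (-0.98 ± 0.19, 0.000658). All 3 genes of the c subunit were lowest in retina: Atp5g1 had 38.9, 49 and 63.3 CPM there, Atp5g2 52.1, 59.3 and 81.1 CPM and Atp5g3 103, 135 and 175 CPM. In choroid they had 64.4, 92.3 and 115 CPM, 110, 178 and 220 CPM, and 198, 376 and 302 CPM, and in brain 101, 103 and 102 CPM, 128, 149 and 131 CPM, and 291, 282 and 285 CPM. Atp5g3 was the most abundant of them in each tissue, also per kilobase (409, 193 and 401 CPM per kilobase in choroid, retina and brain, against 152, 84.6 and 171 for Atp5g1 and 232, 87.8 and 186 for Atp5g2). Over the complexes the choroid minus retina differences ran from -0.28 to 1.64 in complex I, 0.22 to 1.54 in complex II, 0.11 to 1.87 in complex III, 0.89 to 1.76 in complex IV and -1.34 to 1.63 in complex V.

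Both members that were higher in retina than in choroid belong to the Atp5 names without being ATP synthase subunits proper. Atp5sl (chromosome 7, 25619493 to 25625550) had 16.5, 25.4 and 30.7 CPM in choroid, 57.2, 64.4 and 58.7 CPM in retina and 45.9, 40.6 and 44.3 CPM in brain. The groups did not overlap, and the differences were -1.34 ± 0.21 for choroid minus retina (edgeR adjusted p = 8.48e-05), 0.46 ± 0.19 for retina minus brain (0.0495) and -0.88 ± 0.21 for choroid minus brain (0.00388). It was the 1 member higher in retina than in brain, a call lost in 11 alternatives, among them leaving out any 1 retina or brain positive fraction. Atp5s had 8.48, 5.53 and 4.51 CPM in choroid, 10.6, 13.7 and 11.3 CPM in retina and 11.1, 8.46 and 8.88 CPM in brain (choroid minus retina -0.89 ± 0.28, edgeR adjusted p = 0.0121). For choroid it was listed through its inputs.

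The count lower in retina than in brain was 38 without the libraries numbered 953 and 65 to 70 without any 1 choroid positive fraction, and the count higher in choroid than in retina was 42 without the libraries numbered 953. The choroid minus brain counts were less settled: 33 members were higher without choroid positive 421, 14 without retina positive 421, 9 without retina positive 960, 2 without retina positive 953, 0 or 1 without any other choroid or brain positive fraction, and 17 in DESeq2. Lower counts there ranged from 2 to 8, with 8 without retina positive 960. The share of all genes called in each of these fits is not given beside them, so they describe the processing only.

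The inputs, which are whole tissue, had the same low retina. Levels here were scaled over the 9 inputs, and the members summed to 12039, 14397 and 17157 CPM in choroid, 8874, 8920 and 8290 CPM in retina and 13929, 14086 and 31119 CPM in brain. Between retina and brain 0 of 77 members were higher in retina and 67 lower, while 59% of all genes were called and 34.7% were lower, with a median of -1.40 (all genes -0.18). Without brain input 960 there were 1 (Ndufv3, 0.53, edgeR adjusted p = 0.0387) and 55, while 66.2% of all genes were called, with a median of -0.64. Between choroid and retina 37 were higher in choroid and 1 lower, while 63.8% of all genes were called and 31.9% were higher, with a median of 0.90, and without brain input 960, which enters that fit only through the common spread and scaling, 65 and 4 (78% of all genes). Between choroid and brain 0 were higher and 13 lower with all libraries (54.1% of all genes), and 23 and 12 without brain input 960 (68.8%), with medians of -0.45 and 0.13. Leaving out 1 choroid or retina input brought the count higher in choroid than in retina to between 8 (without choroid input 960) and 21 (without choroid input 421), and leaving out brain input 421 or 953 raised the count lower in choroid than in brain to 21 or 20. The counts with 1 input left out lack the share of all genes beside them.

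Uqcr11 had 119, 165 and 208 CPM in choroid inputs, 44, 42.9 and 38.7 CPM in retina inputs and 96.5, 96 and 266 CPM in brain inputs (choroid minus retina 1.97 ± 0.40, edgeR adjusted p = 0.00219). Atp5k had 95.7, 138 and 192 CPM, 36.7, 40.6 and 41.4 CPM and 75.6, 76.4 and 333 CPM, with retina minus brain at -2.02, or -0.81 without brain input 960. Cox6a1 had 180, 198 and 273 CPM, 111, 105 and 107 CPM and 266, 260 and 798 CPM (retina minus brain -2.03 ± 0.42, edgeR adjusted p = 0.00302, and -1.16 with 0.000246 without brain input 960). In these 3 small subunits the retina inputs were the lowest group and varied least. Sdhb, at 117, 121 and 142 CPM, 52.3, 51.6 and 46.5 CPM and 140, 138 and 317 CPM, kept a retina minus brain difference of -1.34 without brain input 960 (edgeR adjusted p = 1.03e-05). Cox5a in choroid inputs (73.8, 90.4 and 122 CPM) overlapped retina inputs (83.7, 87.2 and 81.8 CPM) and was below brain (176, 165 and 541 CPM), with choroid minus brain at -1.62 (edgeR adjusted p = 0.0113) and -0.85 without brain input 960 (0.00241). Atp5sl was again higher in retina than in choroid, though not than in brain, with 21.7, 20.6 and 24.1 CPM in choroid, 44, 47.1 and 50.3 CPM in retina and 54.5, 52.1 and 74 CPM in brain (choroid minus retina -1.09 ± 0.16, edgeR adjusted p = 0.000332).

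The differences went with transcript length. Lengths of the members ran from 315 to 3479 bases. In the positive fractions Spearman's correlation between length and the choroid minus retina difference was -0.55 over the 77 members and -0.37 over 10193 genes. For members under 700 bases the median difference was 1.26 (29 of 31 higher in choroid), from 700 to 1500 bases 1.07 (28 of 29), and from 1500 bases up 0.22 (8 higher and 1 lower of 17). Over all genes the same classes had medians of 1.33 (153 of 184 higher), 0.86 (778 of 1246) and -0.27 (2473 of 8763). The short members thus stood close to all genes of their length, and the long ones above all genes of theirs. These all-gene classes include the members. Between retina and brain members under 700 bases had a median of -0.83 (28 of 31 lower) and all genes of that length -0.85 (135 of 184 lower). From 1500 bases up the members had -0.52 (11 of 17 lower) and all genes 0.09. In enrichment the correlation over members was -0.32 in choroid and -0.49 in retina (all genes -0.21 and -0.19), and in brain it was 0.07 with all libraries and -0.54 without input 960 (all genes -0.17 with all libraries). The points share libraries and depth, and the part of transcript length in the tissue differences was not tested.

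**Figure D5:**
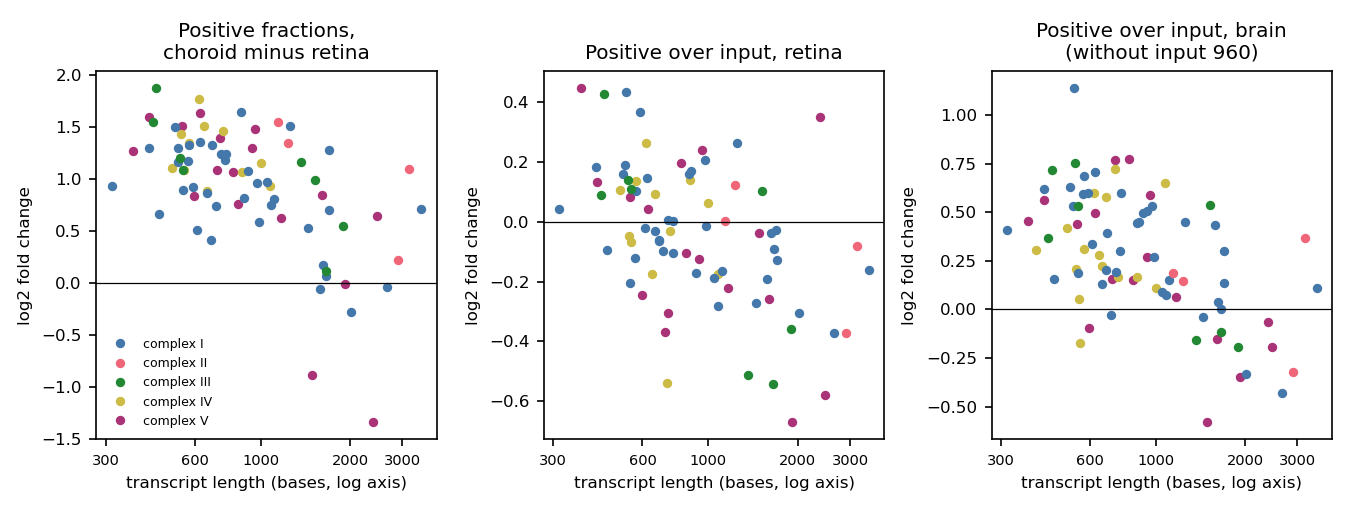
Log2 difference against transcript length in bases (log axis) for the members, coloured by complex, in 3 panels. In choroid minus retina positive fractions the short members sit highest, with a median of 1.26 under 700 bases and 0.22 from 1500 bases up.

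Other genes of the pathway gave the following counts, to be read against 42%, 31.7% and 39.5% of all genes called in choroid, retina and brain, or 72.1% in brain without input 960. Of 17 tricarboxylic acid cycle genes, which feed the chain with NADH and succinate, 0 rose and 7 fell in choroid positive fractions against inputs (median -0.29), 2 rose and 4 fell in retina (-0.22), and 2 rose and 3 fell in brain (-0.33), or 2 and 10 without input 960. Of 76 mitochondrial ribosomal proteins, which are also nuclear-encoded and translate the mitochondrial subunits, 13 rose and 1 fell in choroid (0.42), 4 and 0 in retina (0.01) and 1 and 1 in brain (-0.12), or 42 and 5 without input 960 (0.32). Of 14 regulators of mitochondrial biogenesis 3 rose and 1 fell, 1 and 1, and 2 and 1, the last being 2 and 3 without input 960. Of 13 assembly factors for complex I, 1 rose in choroid, 0 in retina and 1 in brain, and 0 fell in any; without brain input 960 2 rose and 1 fell in brain. Of 14 for complex IV, 1 rose and 3 fell in choroid, 1 and 1 in retina, and 0 and 1 in brain, or 5 and 4 without input 960. Of 5 for complexes II and III, 0 rose in any tissue and 0, 1 and 2 fell, and without input 960 2 rose and 2 fell in brain. Of 6 for ATP synthase assembly and regulation, 1 rose in choroid and none passed in retina or in brain, where 1 fell without input 960. Of cytochrome c and cytochrome c1, 1 fell in choroid.

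Between positive fractions the mitochondrial ribosomal proteins had 48 of 76 higher in choroid than in retina and 4 lower (median 0.69, while 32.9% of all genes were higher), and 1 higher and 35 lower in retina than in brain (median -0.48). The tricarboxylic acid cycle genes were also low in retina against brain, with 1 higher and 13 lower of 17 (median -0.58), but not against choroid, where 4 were higher in choroid and 2 lower. Of the 13 complex I assembly factors 2 were higher in choroid than in retina and 4 lower. These lists were not tested against the members.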

How the data were processed

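RNA from Tie2-cre+; NuTRAP+ mouse choroid, retina and brain was sequenced with a directional kit, per the labels' protocols. Per the submitters' processing notes the tools and build include DESeq and mm10; the aligner and counter were not given. The authors deposited 1 table per tissue. Per the file headers it holds raw and normalized columns: the raw ones are estimated counts per gene as the authors' counting gave them, 72 to 91.5% of them not whole. The normalized ones, on a log2 scale as deposited by the authors, were not used. Expected counts were rounded. edgeR 4.0.16 (R 4.3.3) was run with TMM scaling, filterByExpr (0 genes removed), quasi-likelihood tests and Benjamini-Hochberg adjustment over all genes at 0.05. Enrichment used the 6 libraries of a tissue (4 residual degrees of freedom), differences of enrichment all 18 libraries (12), and comparisons between tissues the 9 positive fractions or the 9 inputs (6). Alternatives were library-size scaling, RLE size factors, DESeq2 1.42.0, other filters, a replicate block, 1 fit of all 18 libraries, and leaving out each library or replicate number. The method was tested on simulated data. Transcript lengths and exon overlaps come from GENCODE vM21.

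Same-numbered choroid inputs and positive fractions deviated together (r = 0.63, 0.23 and 0.49 for 421, 953 and 960), so the numbers were taken to pair them. Not every pair passed 0.1 in the other comparisons, though choroid and brain inputs had 0.47, 0.06 and 0.59 in the same order. The labels do not say what the numbers are. Members and lists were chosen with earlier results of these data known. Named members were the most changed called ones per comparison with a mean of at least 10 CPM (5 each way and, in enrichment, no overlap; 4 each way elsewhere), the isoform pairs and a fixed set of core subunits; others named were chosen after their values were seen. A result on 1 member is not reported here.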

Additional observations from a re-analysis of the deposited data

Results flagged for a closer look

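In 3 results the enrichment of a member in one tissue differed from that in another by a test of the difference itself (edgeR, all 18 libraries). Cox5a was enriched more in choroid than in brain by 1.96 on the log2 scale (adjusted p = 0.0107), or by 0.98 without brain input 960 (adjusted p = 0.0324), and more in choroid than in retina by 1.49 (adjusted p = 0.0401), a call lost in 14 of 27 alternatives. Its positive fractions were above the inputs in 3 of 3 numbered pairs in choroid (62.9, 77.7 and 105 CPM in inputs against 131, 243 and 224 CPM in positive fractions). Cox5a was lower in choroid inputs than in brain inputs and was not called between choroid and brain positive fractions. Gm26631 overlaps its exons on the other strand. Atp5s was enriched less in choroid than in retina by -1.21 (adjusted p = 0.00567), with 12.1, 16.4 and 15.1 CPM in choroid inputs and 7.94, 5.25 and 4.24 CPM in choroid positive fractions. It was listed for choroid only through the inputs, where it was high, and its choroid positive fractions held few reads.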

How the results depend on the processing

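Of 2889 recomputed values of the 169 results on named members, 2544 kept their direction and side of the threshold, 249 lost their call, 86 gained one and 10 changed sign. The sign changes were all in brain enrichment without brain input 960 and without replicate number 960: Cox5a 0.28 and 0.26, Cox6a1 0.31 and 0.31, Cox6b1 0.60 and 0.57, Cox7a2 0.22 and 0.22, and Ndufa4 0.33 and 0.33. The lowest values of these 5 were all without the libraries numbered 953, at -0.85, -0.76, -0.59, -0.49 and -0.60. The members called moved as follows, and the cause was not tested. All genes moved as well: the share called in choroid enrichment was 43.5% with library-size scaling alone, 46.1% in DESeq2 and 56.6% with the block. Leaving out a library or a replicate number gave 16.8 to 43.3% of all genes in choroid enrichment and 6.73 to 46.5% in retina. Most other counts below are given without that share. With library-size scaling alone, choroid enrichment had 1 higher and 10 lower, brain enrichment 4 lower, the choroid minus brain difference 3 lower, the choroid minus retina difference 0 higher, choroid minus brain positive fractions 1 higher and 11 lower, choroid minus brain inputs 4 higher and choroid minus retina inputs 2 lower. With RLE size factors, brain enrichment had 1 higher, retina minus brain positive fractions 0 higher and choroid minus brain positive fractions 12 higher. With DESeq2, choroid enrichment had 7 higher, brain enrichment 5 lower, the retina minus brain and choroid minus brain differences 2 higher each, retina minus brain positive fractions 0 higher, choroid minus brain positive fractions 17 higher and choroid minus brain inputs 3 higher. With a mean of at least 10 CPM required, choroid minus retina had 1 lower in positive fractions and 21 higher in inputs. In 1 fit of all 18 libraries, retina enrichment had 0 higher and brain enrichment 0 higher and 14 lower. With the replicate block, choroid enrichment had 20 higher, retina enrichment 1 higher, brain enrichment 0 higher and 0 lower, the retina minus brain difference 1 higher and 1 lower, the choroid minus brain difference 4 higher, the choroid minus retina difference 2 higher, retina minus brain positive fractions 0 higher, choroid minus brain positive fractions 16 higher and choroid minus brain inputs 2 higher; outside choroid enrichment the numbers were not shown to pair the libraries. Leaving out a library or a replicate number gave, for members higher and lower, 0 to 18 and 1 to 6 in choroid enrichment, 0 to 13 and 0 to 19 in retina, 0 to 42 and 0 to 8 in brain, 0 to 0 and 0 to 10 in the retina minus brain difference, 0 to 15 and 0 to 2 in choroid minus brain, and 0 to 13 and 0 to 1 in choroid minus retina. For positive fractions the ranges were 0 to 1 and 38 to 70 in retina minus brain, 0 to 34 and 2 to 8 in choroid minus brain, and 42 to 67 and 1 to 3 in choroid minus retina, and for inputs 0 to 1 and 44 to 71, 0 to 23 and 6 to 21, and 8 to 65 and 1 to 5. Where 1 sample was left out of 3, the spread was pooled over the groups fitted. Omitting the filter on low counts changed no value, since it removed 0 genes, and leaving out mitochondrially encoded genes gave no value, as 0 were listed.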
